A study of Mus musculus with 12 samples.

Results

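The effect of fasting on the uninjured mouse eye was read from 6 of the 12 libraries of the series, 3 from mice fed freely and 3 from mice on alternate-day fasting, over the 21930 genes of the deposited count table. All mice were wild-type C57BL/6J males that were 8 weeks old when the diets began. The AL (ad libitum) mice had food at all times for 12 weeks, and the IF (intermittent fasting) mice alternated 24 hours without food and 24 hours with food for the same 12 weeks. Both groups then received an intraperitoneal injection of PBS, a saline buffer, so the groups are AL + PBS and IF + PBS. Tissue was taken 7 days later, and the methods, which describe the NaIO3 injection, keep each diet going until the end. The other 6 libraries come from mice of both diets injected with NaIO3, an oxidant that damages the retinal pigment epithelium (RPE), at 25 mg/kg, with 3 mice in each of those 2 groups. The methods of the qPCR experiments pool both eye cups of a mouse. Whether the IF mice were in a fasted or a fed day when tissue was taken is not given in the sources used here.

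Genes of glycolysis and hypoxia and immediate early genes were among those lower in IF + PBS. The largest differences lay in markers of muscle and cornea, tissues that adjoin the eye cup. The summed level of the lens markers stood apart in 1 AL + PBS library. Among the lens markers 3 crystallins were counted almost only in AL + PBS, through which alone they passed the filter on low counts. Without library IF + PBS 1 the share of lower immediate early genes was close to that of all genes. Hk2, the hexokinase that commits glucose to glycolysis in photoreceptors, was 1.73 times lower in IF + PBS, and Egr1, a transcription factor induced within minutes of cell stimulation, was 4.20 times lower. The higher levels were smaller and more scattered, with Col9a1, a collagen of the vitreous and cartilage, 1.53 times higher, and the cone arrestin Arr3 1.81 times higher. Across the 15361 genes tested, the edgeR quasi-likelihood test on the 6 libraries called no gene, so none of these differences passed the test as planned. Hk2 and Egr1 passed it once the libraries were adjusted for trends on GC content and gene length, an adjustment chosen after seeing the data.

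Fasting lowers insulin and empties liver glycogen, after which most tissues shift from glucose to fatty acids and ketone bodies, through PPAR-alpha, glucocorticoid and FoxO target genes. The outer retina is unusual in that photoreceptors turn most of their glucose into lactate even with oxygen present, and export it to the Müller glia and the RPE through monocarboxylate transporters. The RPE recycles the visual chromophore, clears shed photoreceptor tips and controls what reaches the retina from the choroid.

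The 6 libraries held between 30546495 and 43046950 counts, so that 3 counts corresponded to 0.0697 to 0.0982 CPM (counts scaled to a common library total). The tissue is labelled as RPE with choroid and sclera, while the methods describe the RNA as isolated from eye cups. Its most abundant markers were those of the neural retina. The rod arrestin gene Sag reached 1940.3 ± 28.8 FPKM (fragments per kilobase of transcript, scaled by library size, mean ± SD, n = 3) in AL + PBS, against 54.8 ± 8.6 FPKM for the RPE gene Rpe65 and 3.05 ± 0.65 FPKM for the scleral collagen gene Col1a1. A bulk library cannot tell fewer cells of a type from less RNA per cell, which applies to each difference below. Library IF + PBS 1 stood apart in its own group. Its Spearman correlation over genes was 0.9905 with AL + PBS 1, 0.989 with IF + PBS 3 and 0.984 with IF + PBS 2, and its quality weight in limma was the lowest of the 6, at 0.395 against 0.702 to 2.27. The first principal component still separated the diets, with scores from -19.6 to -14.2 in AL + PBS and from 10.3 to 27.0 in IF + PBS. On this component IF + PBS 1 lay furthest from AL + PBS, at 27.0. The second component set IF + PBS 2 apart, at 28.3 against -10.7 to 3.66 in the other libraries. Counts of many gene lists shifted without IF + PBS 1, and those values are given beside the lists.

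Calls required both an adjusted p under 0.05 and a difference of 1.5 times or more. In the 6 libraries edgeR called 0 of 15361 genes (0%), the smallest adjusted p being 0.153. At an unadjusted p under 0.05 there were 1263 genes higher (8.22%) and 1360 lower (8.85%) in IF + PBS, and the groups did not overlap at all in 1632 genes higher (10.6%) and 1736 lower (11.3%). DESeq2 called 73 of 13963 genes higher (0.523%) and 91 lower (0.652%). Leaving out IF + PBS 1, edgeR called 166 of 15602 genes higher (1.06%) and 306 lower (1.96%), and 2136 were higher (13.7%) and 2476 lower (15.9%) at an unadjusted p under 0.05. Of the 164 genes called by DESeq2, 123 (75.0%) were among those 472, which is 26.1% of the 472. The direction and size of the values below come from the 6-library edgeR fit, and calls by other fits are named as such. In the gene lists below, the counts of higher and lower members are those with an unadjusted p under 0.05 unless stated otherwise, to be read against the percentages of all genes just given.

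The differences between the diets ran with the base composition and the length of the genes. Over 13962 genes, the log2 difference had a Spearman correlation of 0.483 with the GC content of the transcript and of -0.358 with its length, as a description across genes. With the genes cut into 5 equal bins, from the bin with the lowest GC content (median 41.9%) to the bin with the highest (57.8%), the median log2 difference went from -0.16 to 0.17. From the shortest bin (median 1524 bases) to the longest (7525 bases) it went from 0.12 to -0.13. The trend differed between the libraries of each diet. The correlation with GC content was 0.518 in IF + PBS 2 and 0.419 in IF + PBS 3, and 0.174 in IF + PBS 1. It was 0.369 in AL + PBS 1, but -0.243 in AL + PBS 2 and -0.154 in AL + PBS 3. With the trends taken out as an offset for each library, edgeR called 2 genes higher (0.013%), Cdcp3 and Pcdh15, and 7 lower (0.0456%), Hk2, Egr1, Slc16a3, Pfkl, H1f2, Gsto1 and Arf6. At an unadjusted p under 0.05 there were then 982 higher (6.39%) and 1070 lower (6.97%). With the offsets and without IF + PBS 1, it called 33 higher (0.212%) and 114 lower (0.731%), and all 9 genes were among these. The part of RNA quality or library preparation in the trend was not tested.

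**Figure D1:**
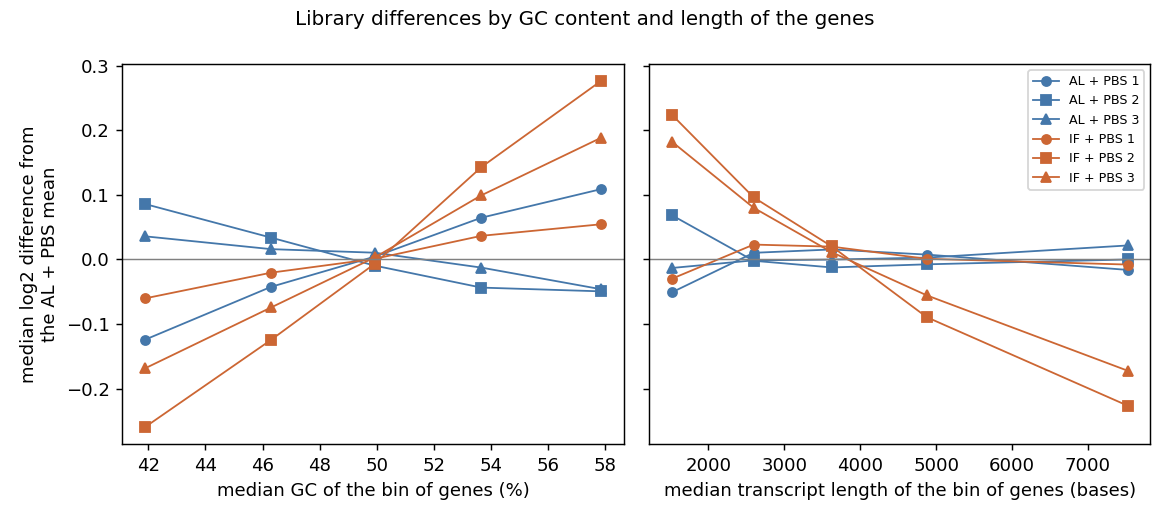
Median log2 difference of each library from the AL + PBS mean in 5 bins of genes, by median GC content of the bin in percent (left) and median transcript length in bases (right); colours mark the diet and symbols the replicate. IF + PBS 2 and IF + PBS 3 have the steepest lines in both panels, and IF + PBS 1 lies among the AL + PBS libraries.

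In the 6-library fit, glycolysis and hypoxia genes had the largest share of lower members among the 24 pathway lists. Without IF + PBS 1 the regulators of collagen through extracellular signals had a larger share, at 6 of 15 against 13 of 33. In a fit of all 12 libraries the interferon-stimulated genes did, at 9 of 32 against 8 of 33. Of 33 tested genes of glycolysis and its control by hypoxia, 12 were lower and 0 higher at an unadjusted p under 0.05, against 8.85% and 8.22% of all genes, with a median log2 difference of -0.17 against 0.01 for all genes tested. With the GC and length offsets, 18 were lower and 0 higher, and the median was -0.24. Without IF + PBS 1, 13 were lower and 2 higher, and the median was -0.13.

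Hk2 (chr6:82725025-82774454, minus strand, GRCm38) measured 645, 641 and 639.6 CPM in AL + PBS and 441, 340.4 and 332 CPM in IF + PBS. The AL + PBS libraries were nearly equal, and all 3 IF + PBS libraries lay below them, with IF + PBS 1 the closest. Its log2 difference was -0.79 ± 0.11 (SE) with an adjusted p of 0.153 in edgeR, -0.94 with an adjusted p of 0.0022 without IF + PBS 1, and -0.75 with an adjusted p of 0.0275 with the offsets.

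A lactate transporter and a further enzyme were lower as well, here with IF + PBS 2 the closest to AL + PBS. Slc16a3 (chr11:120948480-120960868), which encodes the lactate exporter MCT4, measured 78.3, 77.2 and 76.1 CPM in AL + PBS and 48.7, 58.8 and 42.6 CPM in IF + PBS, a log2 difference of -0.63 ± 0.12, or -0.75 with the offsets and an adjusted p of 0.0323 in edgeR. Its coordinates overlap those of Csnk1d, and whether counting used strand is not given in the sources used here. Pfkl (chr10:77986947-78010083), the liver-type phosphofructokinase, measured 539, 528 and 498 CPM in AL + PBS and 389, 417 and 336 CPM in IF + PBS, a log2 difference of -0.45 ± 0.10, or -0.60 with the offsets and an adjusted p of 0.0323 in edgeR.

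In each of these genes the groups did not overlap, as in 13 lower members of the list and 1 higher. Bnip3, a hypoxia-induced mitophagy receptor, measured 173, 198 and 171 CPM in AL + PBS and 126, 145 and 126 CPM in IF + PBS. Pkm, the pyruvate kinase of the last step, measured 3684, 3849.7 and 3536 CPM in AL + PBS and 2825, 3224 and 2747 CPM in IF + PBS. Pdk1, a kinase that inhibits pyruvate dehydrogenase, had a log2 difference of -0.44 ± 0.11, and Ldha, the lactate dehydrogenase subunit that forms lactate, of -0.20 ± 0.09. Hk1, the hexokinase found in most tissues, differed by -0.07 and the glucose transporter gene Slc2a1 by -0.12, and neither had an unadjusted p under 0.05. Hif1a, the hypoxia-inducible factor, was at -0.30 ± 0.09 but at -0.07 with the offsets, and its coordinates overlap Snapc1l. The summed level of the list was 19790, 20411 and 19594 CPM in AL + PBS and 16713, 18619 and 16360 CPM in IF + PBS, so that no library of one group reached the other.

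**Figure D2:**
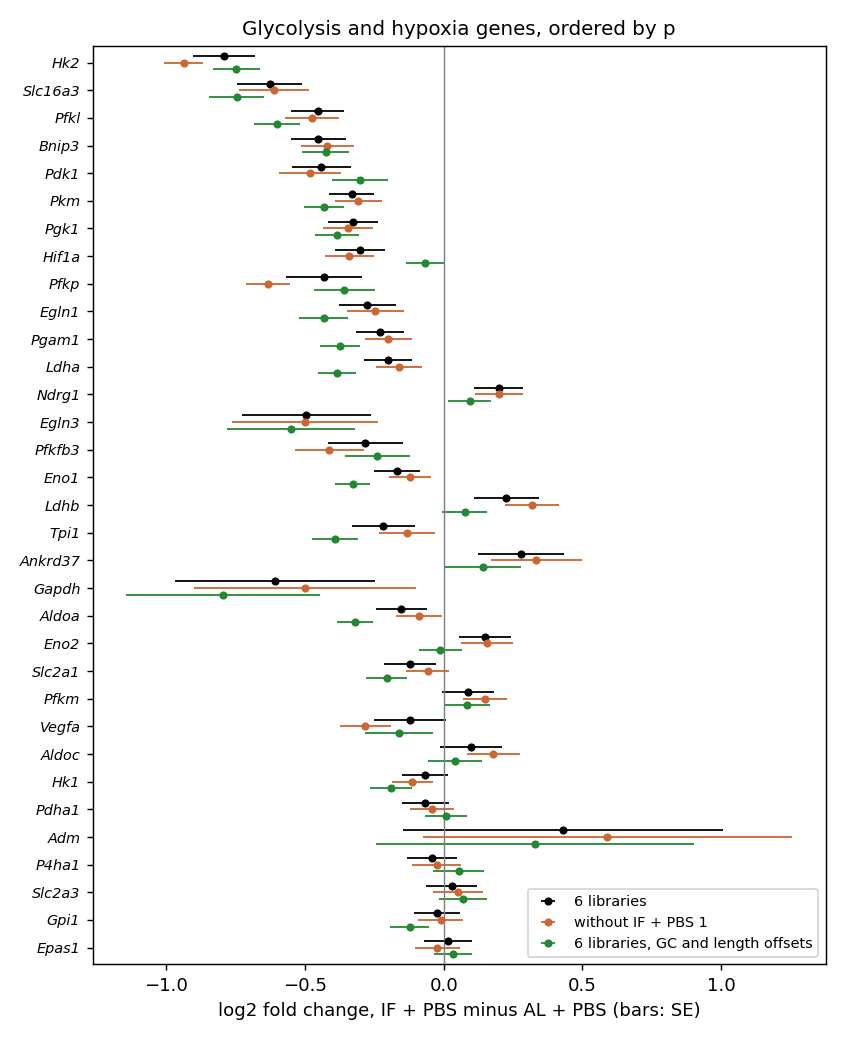
Log2 fold change of IF + PBS against AL + PBS for the 33 tested glycolysis and hypoxia genes, ordered by p, with SE bars, in the 6 libraries (black), without IF + PBS 1 (orange) and with GC and length offsets (green). Hk2 is the lowest by p at -0.79, Slc16a3 and Pfkl follow, and Hif1a moves from -0.30 to -0.07 with the offsets.

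Ak4, a mitochondrial adenylate kinase whose gene is also induced by hypoxia, was not in the list but was among the lower genes with the smallest p. It measured 61.0, 65.8 and 58.0 CPM in AL + PBS and 41.1, 42.5 and 33.4 CPM in IF + PBS, a log2 difference of -0.66 ± 0.11, with an adjusted p of 0.012 without IF + PBS 1 in edgeR.

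The promoters of 4 of these glycolysis and hypoxia genes are given below, since 12 members of the list lay in one direction and many genes induced by hypoxia carry the letters ACGTG, the core of the hypoxia response element. The genes and the motif were chosen after their values were seen. Each window holds the 250 bases before the annotated start of transcription, from RefSeq on GRCm38.p6, 5′ to 3′ on the gene's strand, with matches to ACGTG or its reverse complement CACGT in capitals. Hk2 lies at chr6:82774455-82774704 (minus strand), Slc16a3 at chr11:120948817-120949066 (plus strand), Bnip3 at chr7:138909507-138909756 (minus strand) and Pfkl at chr10:78009808-78010057 (minus strand).
Hk2: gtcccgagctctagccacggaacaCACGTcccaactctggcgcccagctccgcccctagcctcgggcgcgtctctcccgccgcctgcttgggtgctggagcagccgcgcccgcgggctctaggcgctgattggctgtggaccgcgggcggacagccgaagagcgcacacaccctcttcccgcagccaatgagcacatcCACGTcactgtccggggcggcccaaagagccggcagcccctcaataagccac
Slc16a3: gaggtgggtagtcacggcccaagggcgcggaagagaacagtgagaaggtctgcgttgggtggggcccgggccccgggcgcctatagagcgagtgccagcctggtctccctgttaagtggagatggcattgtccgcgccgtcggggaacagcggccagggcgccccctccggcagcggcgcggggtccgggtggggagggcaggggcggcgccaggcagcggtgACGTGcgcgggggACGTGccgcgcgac
Bnip3: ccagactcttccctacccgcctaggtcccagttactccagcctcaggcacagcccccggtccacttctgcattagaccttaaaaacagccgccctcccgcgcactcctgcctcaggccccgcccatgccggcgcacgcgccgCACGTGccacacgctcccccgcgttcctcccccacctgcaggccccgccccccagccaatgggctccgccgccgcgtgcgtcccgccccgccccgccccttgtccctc
Pfkl: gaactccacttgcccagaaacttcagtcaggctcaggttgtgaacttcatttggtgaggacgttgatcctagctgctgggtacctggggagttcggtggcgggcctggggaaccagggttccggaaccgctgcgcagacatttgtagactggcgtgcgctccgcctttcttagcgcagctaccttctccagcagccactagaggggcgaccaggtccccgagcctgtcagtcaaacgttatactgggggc
Hk2 had 2 matches, the nearer 48 bases before the start, Slc16a3 had 2, the nearer 10 bases before a RefSeq start that lies 587 bases from the 5′ end of the deposited gene, and Bnip3 had 2 that overlap in the palindrome CACGTG. Pfkl had 0 matches in this window, and its RefSeq start lies 276 bases from the 5′ end of the deposited gene. A match was present in 14 of the 30 list members with a window (46.7%), in 8 of the 12 members lower at an unadjusted p under 0.05 (66.7%) and in 2504 of 12021 windows of all tested genes (20.8%). A match is a description of letters and no measure of binding. The list was chosen for glycolysis and hypoxia, so a share above that of all genes follows partly from this choice. It is no result of the diet.

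Several immediate early genes were lower in IF + PBS. These genes are transcribed within minutes of light, calcium or growth factor signals and their mRNAs are short-lived. Of 26 tested, 5 were lower and 0 higher at an unadjusted p under 0.05, with a median log2 difference of -0.18, and 7 were lower and 0 higher with the offsets. With IF + PBS 1 left out, 4 were lower and 2 higher, a share of lower members close to the 15.9% of all genes in that fit. DESeq2 called 4 of them lower.

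Egr1 measured 54.6, 115 and 129 CPM in AL + PBS and 30.2, 21.7 and 19.0 CPM in IF + PBS, a log2 difference of -2.07 ± 0.29, with an adjusted p of 0.153 in the 6 libraries and of 0.0328 with the offsets in edgeR. AL + PBS 1 was less than the mean of its group but above all IF + PBS libraries. Nr4a1, an orphan nuclear receptor, measured 42.3, 67.5 and 88.9 CPM in AL + PBS and 32.1, 34.2 and 27.8 CPM in IF + PBS. AL + PBS 1 was again the lowest of its group in both genes, and without it edgeR called Egr1, Fos, Nr4a1 and Aldh3a1 lower and Ppp2r5b higher. Dusp1, a phosphatase that switches off MAP kinases, measured 31.9, 44.5 and 42.4 CPM in AL + PBS and 20.2, 24.8 and 29.0 CPM in IF + PBS, and its deposited coordinates overlap Ergic1.

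Fos, a subunit of the AP-1 transcription factor, is shown with its promoter because it is a textbook target of calcium and cyclic AMP signals through CREB, whose sites contain TGACG. It measured 30.6, 60.4 and 59.2 CPM in AL + PBS and 24.1, 24.01 and 19.3 CPM in IF + PBS, a log2 difference of -1.15 ± 0.23. The window is chr12:85473640-85473889 (plus strand, GRCm38.p6, RefSeq), 5′ to 3′, with TGACG or its reverse complement CGTCA in capitals, a gene and motif chosen after the values were seen.
Fos: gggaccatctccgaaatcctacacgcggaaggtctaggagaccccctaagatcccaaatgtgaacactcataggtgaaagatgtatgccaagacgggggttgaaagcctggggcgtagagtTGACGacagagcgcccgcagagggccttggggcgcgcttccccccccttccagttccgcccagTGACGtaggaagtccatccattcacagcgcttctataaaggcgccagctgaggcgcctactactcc
The nearer of the 2 matches lies 62 bases before the start. Either form was present in 14 of 22 immediate early genes with a window (63.6%) and in 3067 of 12021 windows of all tested genes (25.5%). The list was chosen for genes induced by such signals, so its larger share is no result of the diet.

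The other lower genes with the smallest p were of several kinds. H1f2, a replication-dependent linker histone, measured 115, 110.1 and 130.1 CPM in AL + PBS and 77.0, 74.7 and 84.7 CPM in IF + PBS, and its adjusted p with the offsets was 0.0323 in edgeR. Such histone mRNAs mostly lack a poly-A tail, on which the libraries were selected. Slc30a1, a zinc exporter of the plasma membrane, had the tightest values, at 20.5, 21.1 and 20.9 CPM in AL + PBS and 13.3, 12.6 and 13.2 CPM in IF + PBS, a log2 difference of -0.67 ± 0.12. Cmah, which converts one sialic acid into another, had a log2 difference of -1.35 ± 0.25 at levels of at most 6.93 CPM. Gm4724, at -1.82 ± 0.32, is a predicted gene, whose near copies could share reads. Dcn, Krt5, Krt6b, Krt13 and Aldh3a1 are described with the tissue markers.

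Among the genes called with the offsets, Gsto1, a glutathione transferase that also reduces dehydroascorbate, measured 43.1, 48.97 and 59.4 CPM in AL + PBS and 12.1, 25.4 and 19.0 CPM in IF + PBS, with a log2 difference of -1.42 and overlapping coordinates with Cfap43. Arf6, a small GTPase of membrane traffic, measured 44.8, 47.1 and 43.6 CPM in AL + PBS and 30.6, 33.2 and 28.5 CPM in IF + PBS. Gsto1 and Arf6 both had non-overlapping groups. With 12 libraries scaled together, Gsto1 was highest in AL + NaIO3 2 and IF + NaIO3 1, at 296 and 181 CPM. The summed markers of cornea and conjunctiva, described below, were highest in the same libraries, at 1270 and 605 CPM. The part of that tissue in the Gsto1 difference was not tested. Pcdh15, the cadherin whose loss causes Usher syndrome, measured 203, 214 and 241 CPM in AL + PBS and 410, 252 and 308 CPM in IF + PBS, highest in IF + PBS 1. Cdcp3, whose coordinates overlap Fgfr2, measured 78.3, 74.9 and 80.9 CPM in AL + PBS and 168, 114 and 147 CPM in IF + PBS.

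The 12 higher genes with the smallest p had log2 differences between 0.62 and 1.17. Col9a1 (chr1:24177610-24252684) measured 37.4, 39.3 and 39.5 CPM in AL + PBS and 56.5, 62.0 and 59.7 CPM in IF + PBS, a log2 difference of 0.62 ± 0.09. It kept 0.56 with the offsets at an adjusted p of 0.0323 in edgeR, below the fold threshold. Cartpt (chr13:99898489-99901091), the precursor of a neuropeptide that suppresses feeding in the hypothalamus and marks some retinal ganglion cells, measured 50.4, 56.1 and 50.2 CPM in AL + PBS and 69.6, 87.3 and 92.8 CPM in IF + PBS. It kept 0.55 of 0.67 with the offsets, also at an adjusted p of 0.0323 in edgeR and below the fold threshold.

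Vgf, a neuropeptide precursor tied to energy balance, measured 28.7, 30.7 and 25.8 CPM in AL + PBS and 41.0, 55.8 and 54.0 CPM in IF + PBS, a log2 difference of 0.82 ± 0.13 that was 0.57 with the offsets. Isyna1, which makes inositol from glucose 6-phosphate, measured 43.7, 42.8 and 40.8 CPM in AL + PBS and 59.1, 74.4 and 69.7 CPM in IF + PBS, a log2 difference of 0.68 ± 0.10 that was 0.40 with the offsets. In both, IF + PBS 1 was the lowest of its group but above all AL + PBS libraries. Cables1, a cyclin-dependent kinase adaptor, measured 6.24, 5.26 and 4.32 CPM in AL + PBS and 12.5, 13.2 and 9.94 CPM in IF + PBS, the largest of the 12 at 1.17 ± 0.19.

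The remaining higher genes were Arr3, described with the cones, and Ypel4, Gm12689, Flot1, Ssbp4, Pou2f2 and Asic3. Flot1 encodes a scaffold of membrane rafts, Pou2f2 a homeobox factor and Asic3 an acid-sensing sodium channel. Ssbp4 moved from 0.69 to 0.37 with the offsets and Flot1 from 0.62 to 0.41. The rule of non-overlap, a 1.5-fold difference, at least 1 CPM and the same direction with each library left out was met by 116 genes higher and 193 lower that overlap no other gene, of which the 12 with the smallest p in each direction are named. Each of these 24 had an adjusted p under 0.05 in edgeR without IF + PBS 1 and 23 also passed the fold threshold, values that describe genes chosen on the same contrast. With the offsets 5 of the 24 had an adjusted p under 0.05, all 24 kept their direction, and the difference was smaller in all 12 higher genes and in 6 of the 12 lower genes.

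**Figure D3:**
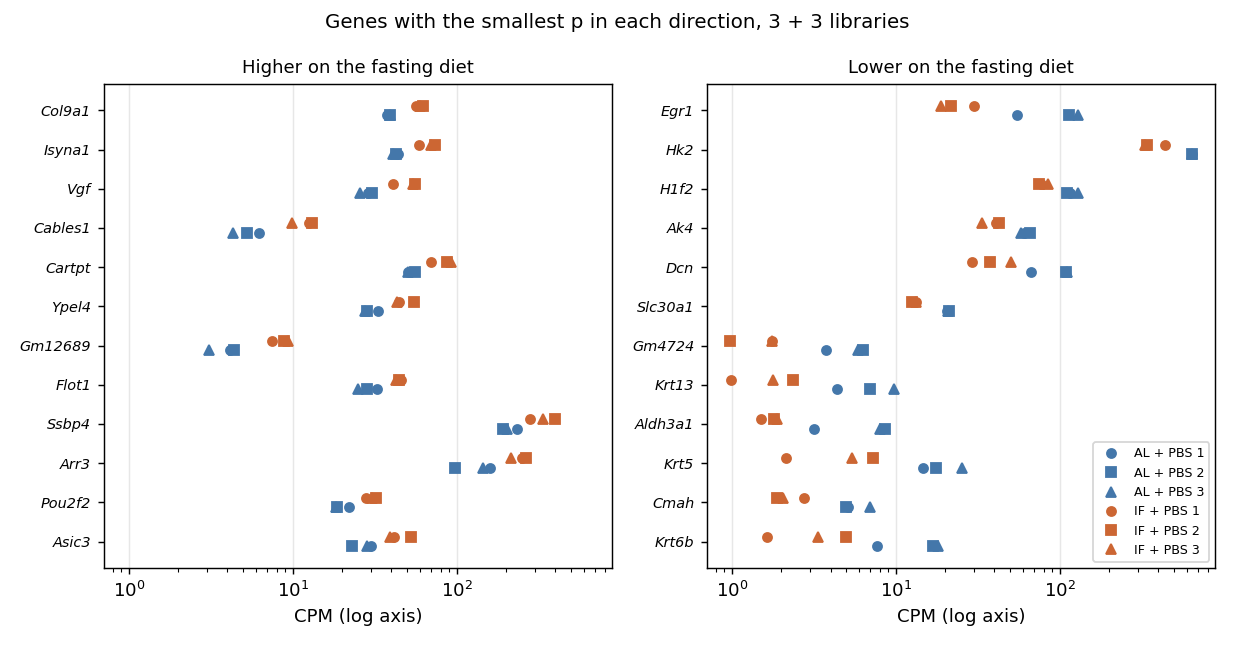
CPM in each of the 6 libraries (log axis) for the 12 higher (left) and 12 lower genes (right) with the smallest p; colours mark the diet and symbols the replicate. The groups do not overlap in any of the 24 genes, as the naming rule required, and IF + PBS 1 is the closest to AL + PBS in Hk2, at 441 CPM, and in Vgf, at 41.0 CPM.

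The classical fasting programme of fat oxidation was near the background. Of 38 tested fat oxidation and ketone genes, 2 were higher and 1 lower at an unadjusted p under 0.05, with a median log2 difference of 0.02, and 5 and 1 without IF + PBS 1. Bdh1, which interconverts the ketone bodies, measured 35.1, 35.1 and 34.2 CPM in AL + PBS and 38.0, 43.1 and 44.1 CPM in IF + PBS. Cpt1b, the muscle-type carnitine transferase, had a log2 difference of 0.68 ± 0.26 with overlapping groups. Ppargc1a, a coactivator of mitochondrial genes, was at -0.27 ± 0.09, and at -0.01 with the offsets. The list's summed level overlapped, at 2288, 2166 and 2302 CPM in AL + PBS and 2274, 2184 and 2279 CPM in IF + PBS.

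Genes under hormonal control in fasting were mixed. Of 35 glucocorticoid and FoxO targets, 3 were higher and 7 lower, with a median of -0.03, and 6 and 12 without IF + PBS 1. With the offsets 2 were higher and 9 lower. The summed level was 4804, 5120 and 4833 CPM in AL + PBS and 4516, 4604 and 4449 CPM in IF + PBS, without overlap. Klf9, a direct glucocorticoid target, measured 194, 220.1 and 205 CPM in AL + PBS and 260.4, 269 and 259 CPM in IF + PBS, a log2 difference of 0.35 ± 0.08 that was 0.45 with the offsets. Trim63, a muscle ubiquitin ligase that FoxO induces, was at -1.06 ± 0.37, in the same direction as the skeletal muscle markers described below. Of 30 insulin and IGF signalling genes, 0 were higher and 4 lower, with a median of -0.03. With the offsets 4 were higher and 2 lower, and without IF + PBS 1 it was 2 and 9.

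Lipid synthesis genes were also near the background by the count at an unadjusted p under 0.05. Of 23 lipogenesis genes 3 were higher and 1 lower (4 and 2 without IF + PBS 1), the lower one in the 6 libraries being Acly, which makes cytosolic acetyl-CoA from citrate, at 247, 234 and 234 CPM in AL + PBS and 206, 181 and 180.5 CPM in IF + PBS. Of 27 sterol synthesis genes 2 were higher and 3 lower, and 2 and 6 without IF + PBS 1. The groups did not overlap in 4 higher and 8 lower members of the 27, against 10.6% and 11.3% of all genes. Their summed level was 1569, 1614 and 1567 CPM in AL + PBS and 1515, 1521 and 1537 CPM in IF + PBS, without overlap. Insig1, which holds back sterol synthesis, measured 103, 107 and 104 CPM in AL + PBS and 82.1, 90.5 and 91.5 CPM in IF + PBS, a log2 difference of -0.25 ± 0.09. None of the 12 tested adipocyte genes had an unadjusted p under 0.05.

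Of 23 clock genes 1 was higher and 3 lower, with a median of -0.03, and 1 and 7 without IF + PBS 1. Dbp, an output gene of the circadian clock, was at 0.30 ± 0.11 and at 0.02 with the offsets. Rorb, a nuclear receptor of the clock that also directs rod fate, was at -0.39 ± 0.12 and at -0.13 with the offsets.

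Respiratory chain, ribosomal protein and integrated stress response genes had small positive medians whose size or sign depended on the offsets and on IF + PBS 1. Of 58 respiratory chain and ATP synthase genes, 47 had a positive difference, but 5 were higher and 1 lower at an unadjusted p under 0.05. With the offsets 2 were higher and 6 lower, and the median of 0.12 became 0.02. Without IF + PBS 1, 26 were higher and 2 lower, and the median was 0.21. Of 55 cytosolic ribosomal protein genes, 51 had a positive difference, 2 of them at an unadjusted p under 0.05. With the offsets 25 differences were positive and 30 negative, 2 genes were higher and 5 lower, and the median of 0.15 became -0.03. Without IF + PBS 1, 31 were higher and 0 lower, and the median was 0.29. The median transcripts of these lists had 1005 and 1071 bases, against 3541 for all tested genes. Ndufs7 of complex I was at 0.36 ± 0.10 and Rpl10a at 0.50 ± 0.12, or 0.06 and 0.23 with the offsets.

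Of 30 integrated stress response genes 4 were higher and 2 lower, with a median of 0.13 and of 0.01 with the offsets, and without IF + PBS 1 it was 14 and 1 with a median of 0.18. Shmt2, the mitochondrial serine hydroxymethyltransferase, measured 37.5, 35.4 and 39.8 CPM in AL + PBS and 48.1, 58.2 and 48.9 CPM in IF + PBS, and its coordinates overlap Ndufa4l2. The log2 difference of Shmt2 was 0.46 ± 0.11, or 0.23 with the offsets. Of 43 autophagy and lysosome genes 1 was higher and 2 lower, of 40 antioxidant genes 2 and 1, of 31 protein folding genes 1 and 2, and of 29 cell cycle genes 2 and 2. Without IF + PBS 1 these were 10 and 6, 12 and 1, 1 and 2, and 3 and 3. The smallest p of each list was that of Lamp2, a lysosomal membrane protein, at -0.30 ± 0.09, of the brain metallothionein Mt3 at 0.46 ± 0.15, of the chaperone Hspa4l at -0.33 ± 0.10 and of the replication helicase subunit Mcm4 at -0.53 ± 0.14. With the offsets these were -0.11, 0.19, 0.00 and -0.40.

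In the RPE, genes of transport and the visual cycle leaned higher. Of 30 tested, 8 were higher and 1 lower at an unadjusted p under 0.05, with a median of 0.10, and 9 were higher and 2 lower with the offsets and 10 and 2 without IF + PBS 1. Slc16a8, the RPE's own lactate transporter MCT3, measured 61.8, 64.7 and 64.2 CPM in AL + PBS and 73.3, 83.4 and 90.3 CPM in IF + PBS, a log2 difference of 0.37 ± 0.10 that was 0.08 with the offsets. Its coordinates overlap Gm49486.

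Rgr, an opsin that helps to regenerate the chromophore, measured 543, 474 and 543 CPM in AL + PBS and 635, 608 and 649.6 CPM in IF + PBS, at 0.28 ± 0.09 and 0.37 with the offsets. Lrat, which esterifies retinol, measured 38.95, 35.6 and 45.0 CPM in AL + PBS and 44.2, 60.8 and 51.6 CPM in IF + PBS, at 0.39 and at 0.64 with the offsets. Rpe65, the isomerase of the cycle, measured 112, 103 and 142 CPM in AL + PBS and 136, 143 and 145 CPM in IF + PBS, and the groups overlapped. Bmp4, a growth factor made by the RPE, and Kcnj13, its apical potassium channel, were at 0.63 ± 0.19 and 0.56 ± 0.19, and their coordinates overlap other genes. The summed level of 20 RPE markers was 2232, 2138 and 2376 CPM in AL + PBS and 2385, 2562 and 2995 CPM in IF + PBS, the lowest IF + PBS library exceeding the highest AL + PBS library by little. The median of these markers was -0.04, with 9 positive and 11 negative differences, so the median and the sum differ in sign. Of the 20, 6 were higher and 2 lower (8 and 1 without IF + PBS 1), the lower ones being Tyr and Tyrp1, enzymes of melanin synthesis, at -0.40 ± 0.15 and -0.61 ± 0.27. How far a larger share of RPE in the dissected tissue entered these differences was not tested.

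Rod genes differed in both directions. Sag, the rod arrestin that ends the light response, measured 4342, 4458 and 4529 CPM in AL + PBS and 5089.7, 5898 and 6414 CPM in IF + PBS, a log2 difference of 0.38 ± 0.09 that was 0.25 with the offsets. Pde6a, a catalytic subunit of the rod phosphodiesterase, measured 2288, 2209 and 2229 CPM in AL + PBS and 1913, 1667 and 1782 CPM in IF + PBS, at -0.33 ± 0.08. Rp1, a protein of the outer segment axoneme, measured 1583, 1995 and 1907 CPM in AL + PBS and 1499.6, 948 and 1200.3 CPM in IF + PBS.

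Of 24 rod markers 1 was higher and 5 lower at an unadjusted p under 0.05, with a median of -0.05, and 2 were higher and 13 lower with the offsets, with a median of -0.19. Without IF + PBS 1, 5 were higher and 7 lower. The summed level of the list was 77246 to 80373 CPM in AL + PBS and 69847 to 74617 CPM in IF + PBS. The lower glycolysis genes, several of which are abundant in rods, differed in the same direction as this sum, and its part in them was not tested.

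In cones the arrestin gene stood above its AL + PBS level and other markers went both ways. Arr3 (chrX:100605497-100618493) measured 159, 97.8 and 145 CPM in AL + PBS and 249.6, 265 and 214 CPM in IF + PBS, a log2 difference of 0.86 ± 0.16, with an adjusted p of 0.0208 without IF + PBS 1 in edgeR. Pde6c, the catalytic subunit of the cone phosphodiesterase, measured 81.2, 72.7 and 82.4 CPM in AL + PBS and 79.9, 45.2 and 46.7 CPM in IF + PBS, so that IF + PBS 1 lay within the AL + PBS group. Of 13 cone markers 2 were higher and 5 lower, and 3 and 4 with the offsets and also without IF + PBS 1. With Sag, Arr3 makes both visual arrestins higher in IF + PBS, an observation made after the values were seen.

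Müller glia, which recycle glutamate and water for the retina, had 1 marker higher and 5 lower of 18. It was 1 and 6 without IF + PBS 1, and 1 and 2 with the offsets. Aqp4, the water channel of their end feet, measured 179, 211 and 199 CPM in AL + PBS and 146, 123 and 131 CPM in IF + PBS, a log2 difference of -0.56 ± 0.10, or -0.31 with the offsets. Glul, the glutamine synthetase, measured 2505, 2829 and 2516 CPM in AL + PBS and 2264, 2344 and 2168 CPM in IF + PBS, and its coordinates overlap Teddm2. Of 30 inner retinal neuron markers 0 were higher and 1 lower, and 3 and 1 without IF + PBS 1 and also with the offsets. Pvalb, the lower one in the 6 libraries, is a calcium buffer that skeletal muscle also makes, and its groups overlapped.

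Among vessels and pigment cells, Kdr, the main receptor for VEGF, measured 154, 160.3 and 164 CPM in AL + PBS and 129.7, 127 and 128 CPM in IF + PBS, a log2 difference of -0.31 ± 0.08. Esam, an endothelial junction protein, was at 0.57 ± 0.16, and Pecam1 at 0.13 ± 0.24. Of 20 endothelial markers 2 were higher and 1 lower (3 and 1 without IF + PBS 1), so Kdr stood against the higher members of its list. Of 15 choroidal melanocyte markers 1 was higher and 2 lower (2 and 1 without IF + PBS 1), the higher one being Slc24a5, a melanosomal exchanger, at 24.7, 16.5 and 16.5 CPM in AL + PBS and 31.0, 34.7 and 31.3 CPM in IF + PBS. Its coordinates overlap Myef2.

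Collagen genes went both ways. Both chains of type I collagen were lower, with Col1a2 at 20.7, 39.6 and 36.0 CPM in AL + PBS and 10.1, 15.1 and 20.1 CPM in IF + PBS and Col1a1 at 16.5, 25.2 and 24.04 CPM against 7.95, 11.5 and 16.3 CPM. The groups did not overlap in either gene. Of 43 collagen and collagen processing genes, however, 7 were higher and these 2 lower (10 and 3 without IF + PBS 1), the higher ones led by Col9a1 and by Col11a2 at 0.97 ± 0.25, collagens that belong to the vitreous and cartilage type of fibril.

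Of 48 other stromal matrix genes 0 were higher and 8 lower, with a median of -0.10, and 4 and 5 without IF + PBS 1. Dcn, decorin, a proteoglycan that binds collagen fibrils, measured 66.5, 109 and 111 CPM in AL + PBS and 29.1, 37.8 and 50.5 CPM in IF + PBS, a log2 difference of -1.29 ± 0.22 with an adjusted p of 0.017 without IF + PBS 1 in edgeR. Lum, lumican, was at -0.85 ± 0.21. Among 15 regulators of collagen through extracellular signals, 1 was higher and 5 lower with a median of -0.20. Without IF + PBS 1 it was 1 and 6 with -0.08. In the 6 libraries the lower ones were led by Skil, a repressor of TGF-beta signalling, at -0.59 ± 0.12. With the offsets 1 was higher and 3 lower with a median of -0.16, and Skil was at -0.37. Of 18 fibroblast markers 1 was higher and 6 lower with a median of -0.47, or 2 and 5 with -0.31 without IF + PBS 1, while their summed level was 1255, 1319 and 1375 CPM in AL + PBS and 1144, 1411 and 1508 CPM in IF + PBS, so the median and the sum differ in sign.

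The largest differences lay in markers of tissues that adjoin the eye cup. Of 31 skeletal muscle markers 0 were higher and 23 lower at an unadjusted p under 0.05, with a median of -1.52. Their summed level was 630, 347 and 543 CPM in AL + PBS and 105, 306 and 225 CPM in IF + PBS, the groups did not overlap, and IF + PBS 1 was the lowest. Ttn, the giant spring protein of the sarcomere, measured 35.5, 28.1 and 39.9 CPM in AL + PBS and 9.77, 21.3 and 14.6 CPM in IF + PBS. Without IF + PBS 1 the median was -1.14 with 21 lower and 2 higher, and edgeR called 14 of these markers lower and 1, Eno3, a muscle enolase, higher.

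The surface epithelium of cornea and conjunctiva had 0 of 16 markers higher and 12 lower, with a median of -1.70, or 0 and 11 with -1.47 without IF + PBS 1. Dsc3, a desmosomal cadherin and 1 of the 12, passed the filter on low counts through AL + PBS alone, and of the other 15 markers 11 were lower. Their summed level was 403, 429 and 486 CPM in AL + PBS and 366, 401 and 374 CPM in IF + PBS. Krt5, the basal keratin, measured 14.7, 17.5 and 25.3 CPM in AL + PBS and 2.14, 7.28 and 5.40 CPM in IF + PBS, at -1.96 ± 0.37. Krt13 and Krt6b were at -2.03 and -2.09, and Aldh3a1, a detoxifying enzyme abundant in the cornea, at -1.92. Reads of Krt6b could be shared with its near copy Krt6a.

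Of the 23 lens markers 12 passed the filter on low counts, and 3 of these, Cryaa, Cryba1 and Crybb2, passed through AL + PBS alone and so had to differ. No count or median is therefore given for the list. The summed level of the 23 was 66.7, 437 and 62.6 CPM in AL + PBS and 53.9, 53.8 and 67.5 CPM in IF + PBS, and AL + PBS 2 alone stood apart. The lens crystallin gene Cryaa measured 2.71, 141 and 1.93 CPM in AL + PBS and 0 CPM in each IF + PBS library, where 3 counts would be at most 0.0982 CPM. Of 8 erythrocyte markers 0 were higher and 3 lower, with Hbb-bs, the adult beta globin, at -0.69 ± 0.18. Col1a1, Col1a2, Dcn and the median of the fibroblast markers differed in the same direction as these tissues, and the part of how much muscle, conjunctiva and sclera stayed on the eye cup in those results was not tested.

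**Figure D4:**
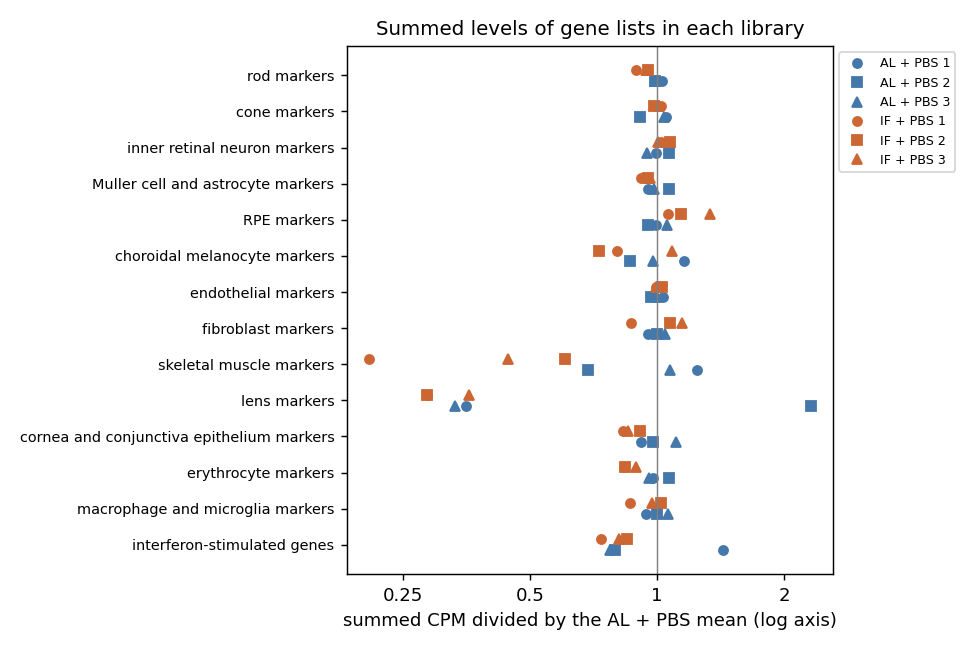
Summed CPM of 13 marker lists and of the interferon-stimulated genes in each of the 6 libraries, divided by the AL + PBS mean (log axis); colours mark the diet and symbols the replicate. Skeletal muscle separates the diets most, the lens markers stand at 437 CPM in AL + PBS 2 alone, and the interferon-stimulated genes at 538 CPM in AL + PBS 1 alone.

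The interferon-stimulated genes differed mainly through AL + PBS 1. Of 32 interferon-stimulated genes 0 were higher and 7 lower, with a median of -0.55. Their summed level was 538, 298 and 291 CPM in AL + PBS and 276, 318 and 305 CPM in IF + PBS, and without AL + PBS 1 the median was -0.14. Leaving out IF + PBS 1 gave 4 lower and 0 higher with a median of -0.39, a share of lower members below the 15.9% of all genes in that fit. Ifit1, an antiviral protein that binds foreign RNA caps, measured 17.0, 7.64 and 6.70 CPM in AL + PBS and 4.18, 5.68 and 4.97 CPM in IF + PBS. Of 20 MHC genes 0 were higher and 2 lower (1 and 1 without IF + PBS 1), among them B2m, the light chain of class I, at -0.38 ± 0.11, whose coordinates overlap Patl2. H2-M3 passed the filter on low counts through AL + PBS alone, and of the other 19 MHC genes 2 were lower. Of 23 complement genes 1 was higher and 2 lower (2 and 1 without IF + PBS 1), the higher one in the 6 libraries being Cfp, properdin of the alternative pathway, at 19.3, 13.3 and 18.2 CPM in AL + PBS and 27.3, 24.4 and 34.7 CPM in IF + PBS. Of 20 macrophage and microglia markers 1 was higher and 2 lower (2 and 2 without IF + PBS 1), and the summed level overlapped, at 136, 144 and 153 CPM in AL + PBS and 125, 147 and 140.2 CPM in IF + PBS.

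The same diet contrast was also available after NaIO3, in 6 libraries that the comparison above did not use. Over 15240 genes tested in both, the log2 differences had a Spearman correlation of 0.136, as a description across genes, and 8172 (53.6%) had the same sign. Of the 24 genes named by p, 16 had the same sign after NaIO3, 8 of 12 in each direction. The 12 higher genes had a median of 0.68 after PBS and 0.26 after NaIO3, and the 12 lower genes medians of -1.59 and -0.38. Isyna1, Vgf and Arr3 were at 0.78 ± 0.16, 0.65 ± 0.26 and 0.71 ± 0.21 after NaIO3. Dcn was at -2.18 ± 0.89, a value set by AL + NaIO3 3, which measured 728 CPM with the 12 libraries scaled together, against 97.0 and 44.4 CPM in the other AL + NaIO3 libraries and 52.8, 77.5 and 64.3 CPM in IF + NaIO3.

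Hk2 and Ak4 had the opposite sign after NaIO3, at 0.94 ± 0.28 and 0.60 ± 0.22, and the glycolysis list had a median of 0.15 there. Egr1 was at -0.10 ± 0.28. All 24 rod markers had a positive difference after NaIO3, with a median of 0.52. Their summed level was 87454, 52486 and 26563 CPM in AL + NaIO3 and 76285, 84082 and 75552 CPM in IF + NaIO3. Hk2 measured 384, 268 and 172 CPM in AL + NaIO3 and 445, 558 and 592 CPM in IF + NaIO3, scaled over 12 libraries. The part of the rods in these diet differences was not tested. The difference between the diet effects was tested by an interaction in the 12 libraries with edgeR, where its adjusted p was 0.0951 for Hk2, 0.11 for Ak4 and 0.21 for Egr1. The interaction called 5 of 15970 genes (0.0313%), none of them among the 24.

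**Figure D5:**
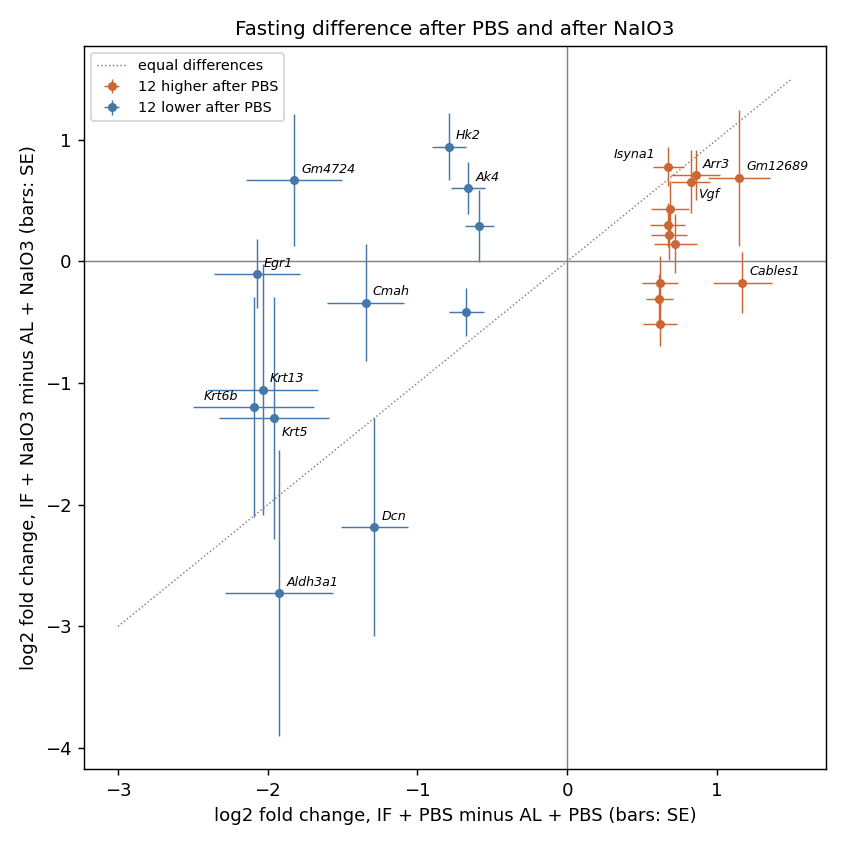
Log2 fold change by diet after NaIO3 (vertical axis, IF + NaIO3 minus AL + NaIO3) against that after PBS (horizontal axis) for the 24 genes named by p, with SE bars; the dotted line marks equal differences. Hk2 and Ak4 lie above 0 after NaIO3 and below 0 after PBS, and the SE bars after NaIO3 are wide for Dcn (0.89) and Aldh3a1 (1.18).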

How the data were processed

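The authors sequenced polyadenylated RNA from the eye tissue of 12 mice, and the 6 PBS libraries were compared here, each from a separate mouse. The authors deposited whole-number read counts per gene, not normalized, and FPKM values. The FPKM values did not follow the counts by a fixed factor per gene. In AL + PBS 1 and 3, of similar depth, Neb had 357 and 414 counts but 0.557 and 1.45 FPKM. The submitters' processing notes name HISAT2, StringTie, DESeq2, edgeR and GRCm39, without versions. The deposited coordinates, however, overlapped RefSeq genes of the same symbol on GRCm38.p6 for 99.9% of genes matched by symbol, and GENCODE genes on GRCm39 for 16.4%, so they were read as GRCm38. Whether strand was used in counting is not given in the sources used here. A table of the authors' own comparison after NaIO3 holds fold changes and p-values, which were not used. 0 per-sample columns were left unassigned, and 36 symbols were listed 2 times.

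Counts were tested in R 4.3.3 with edgeR 4.0.16 (TMM scaling, filterByExpr, quasi-likelihood test, Benjamini-Hochberg adjustment over the 15361 genes tested), on AL + PBS and IF + PBS, with an adjusted p under 0.05 and a fold of at least 1.5. The SE of a log2 difference was its size divided by the square root of F. The script was tested on simulated data. Totals were 30546495 to 43046950 counts per library, and 3 counts set a floor of 0.0697 to 0.0982 CPM, for counting error only. No libraries of a group were duplicates (chi-square per gene 13.2 to 51.5). The alternatives were DESeq2 1.42.0, upper quartile and RLE scaling, other filters, genes overlapping no other gene, no fold threshold, a fit of 12 libraries, voom with quality weights in limma 3.58.1, the replicate number as a block, and each library left out. Chosen after seeing the data were offsets from loess trends (span 0.3) of each library on GC content and length, available for 99.2% of tested genes and set to 0 elsewhere, these offsets without IF + PBS 1, and DESeq2 and the 12-library fit without IF + PBS 1. The interaction of diet and injection was fitted to 12 libraries.

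The comparison and the 43 gene lists were chosen with earlier results of these data known. Genes are named where they were called, where they were among the 12 with the smallest p in a direction (fold of at least 1.5, mean of at least 1 CPM, groups not overlapping, same direction with each library left out, no overlapping gene), where they had the smallest p of a list, or as tissue markers (Rpe65, Col1a1 and Pecam1), with the members of largest difference as examples. Other list members and promoters were named after their values were seen. Some genes that the rule names are not reported here.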

Additional observations from a re-analysis of the deposited data

Results flagged for a closer look

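For 5 genes the diet difference after PBS differed from that after NaIO3 by the interaction test in edgeR over the 12 libraries. CPM values here come from the 12 libraries scaled together and differ slightly from those scaled over the 6 PBS libraries above. Lcn2, an iron-binding protein of inflammation, differed by 4.28 ± 0.41 on the log2 scale (difference after PBS minus difference after NaIO3, adjusted p 0.0020). It measured 4.26, 3.75 and 4.14 CPM in AL + PBS, 5.71, 7.48 and 4.35 CPM in IF + PBS, 53.2, 37.1 and 88.8 CPM in AL + NaIO3 and 4.53, 5.10 and 3.64 CPM in IF + NaIO3. The AL + NaIO3 libraries stood apart from the other 3 groups, which lay between 3.64 and 7.48 CPM.

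Edn2, an endothelin that stressed photoreceptors release, differed by 4.50 ± 0.51 (adjusted p 0.00495 in edgeR), with a diet difference of -0.76 after PBS and of -5.29 after NaIO3. Cebpd, an inflammatory transcription factor whose coordinates overlap Spidr, differed by 2.43 ± 0.28 (adjusted p 0.00495 in edgeR), with -0.12 after PBS and -2.56 after NaIO3. In both, as in Lcn2, the difference lay after the injury.

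Insig1, which holds back sterol synthesis, differed by -1.17 ± 0.15 (adjusted p 0.00981 in edgeR). It measured 103, 107 and 105 CPM in AL + PBS and 82.5, 91.0 and 92.0 CPM in IF + PBS, but 53.1, 53.5 and 42.3 CPM in AL + NaIO3 and 90.4, 96.3 and 95.8 CPM in IF + NaIO3. Its diet difference was -0.25 after PBS and 0.91 after NaIO3, with adjusted p of 0.217 and 0.0806 in edgeR, so neither was called alone. The groups did not overlap either time, but after PBS 11.3% of all genes were lower without overlap. Gm42669, a predicted gene that overlaps 3 others, differed by -3.10 ± 0.43 (adjusted p 0.0212 in edgeR), with 0.17 after PBS and 3.25 after NaIO3.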

How the results depend on the processing

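The count of called genes depended on the test and on IF + PBS 1. It stayed at 0 with upper quartile or RLE scaling, other filters, genes overlapping no other gene, no fold threshold and the 12-library fit. It was 164 with DESeq2, 511 with voom and quality weights, 563 with DESeq2 without IF + PBS 1, 9 with GC and length offsets, 147 with those offsets without IF + PBS 1 and 2 in the 12-library fit without IF + PBS 1. Leaving out each library in turn gave 1 to 472 calls, the 472 without IF + PBS 1 and 5 without AL + PBS 1 or without IF + PBS 2. The replicate numbers did not pair the libraries (correlations of deviations -0.006, -0.041 and 0.032), and with the replicate block 5 genes were called, all lower. The interaction called 5 genes, 212 with DESeq2, 11 without IF + PBS 1 and 8 with the replicate block. The cause of these differences was not tested. Of the values of named genes under the alternatives, 1031 kept direction and side of the threshold, 153 kept direction and newly passed it, and 4 changed sign. These were Ppargc1a at 0.016, Hspa4l at 0.031 and Ndufs7 at -0.039 with the offsets without IF + PBS 1, and Pecam1, which lay between -0.088 without AL + PBS 2 and 0.37 without AL + PBS 1. Of the list medians, 760 moved by less than the spread between libraries and 57 by more.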

Other observations

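Small marker lists of cells rare in the eye cup gave few values. Of 5 tested lymphocyte and mast cell markers, 3 neutrophil markers, 1 lacrimal gland marker and 11 ciliary body and iris markers, 0 had an unadjusted p under 0.05 in edgeR, though without IF + PBS 1 it was 2 of the ciliary body and iris markers, both higher. Of 19 cytokine and chemokine genes 1 was higher and 1 lower (1 and 0 without IF + PBS 1), the smallest p being that of Cxcl14, a chemokine of epithelia and neurons, at 46.8, 57.6 and 51.0 CPM in AL + PBS and 62.1, 72.4 and 79.0 CPM in IF + PBS, or 0.29 instead of 0.46 on the log2 scale with the offsets. Of 16 smooth muscle and pericyte markers 1 was higher and 2 lower (0 and 2 without IF + PBS 1), with Tagln, an actin-binding protein of smooth muscle, at -0.69 ± 0.24. Of 13 Schwann cell and oligodendrocyte markers 0 were higher and 1 lower (3 and 1 without IF + PBS 1), Scn7a, a sodium channel of glia and sensory neurons, at -0.51 ± 0.18 and at -0.20 with the offsets.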
